A study of Mus musculus with 2 samples.

Results

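NF-kB and TNF receptor signalling was described in endothelial cells of the normal mouse brain through a list of 56 genes, chosen by name for their place in the pathway. The choice used no measured value as a criterion, but it was made with earlier results of these data known. A gene was counted as measured when the array held a probe set annotated to its symbol alone, and the probe set with the highest mean signal over both arrays stood for the gene. By this rule 50 of the 56 genes were measured, of 18194 genes in all, through 120 probe sets. Nfkb1, Chuk, Traf3, Ripk1, Ripk2 and Irak4 were not analysed here.

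The study asked which factors made by Prom1+ brain endothelium could act on glioma. Both populations came from the brain vasculature of C57BL/6 mice without pathology and were sorted by FACS on CD31, the endothelial adhesion molecule PECAM-1, and on CD133, the surface protein encoded by Prom1. One population was CD31+ Prom1- and the other CD31+ Prom1+, and RNA of each was amplified, labelled with biotin and hybridized to 1 Affymetrix mouse genome array. The sources used here do not give the age of the mice, how many were pooled for an array, or a genotype beyond the strain.

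NF-kB is a family of dimeric transcription factors built from Rel proteins. IkB proteins hold the dimers in the cytoplasm until the IkB kinase complex marks them for degradation, downstream of TNF receptors, Toll-like receptors and the interleukin 1 receptor. A second branch runs from CD40, the lymphotoxin beta receptor and TWEAK receptor through the kinase NIK to p100 and RelB. In endothelium these pathways are known for switching on leukocyte adhesion molecules, chemokines and colony-stimulating factors, and several of their own inhibitors are themselves NF-kB target genes.

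Signals are given as multiples of the median of the same array, and every ratio is Prom1+ over Prom1-. A floor of 1.67 times the median was set, and signals under it were raised to it before a ratio was taken. Genes were sorted by a fixed rule of size, a fold of at least 2 in either direction. With 1 array per population there was no replicate error, no fold could be set against replicates and no p-value was made. The SD of the log2 ratio between probe sets of the same gene, 0.54 over 3930 genes, describes spread within this pair of arrays and not between animals. In sorted populations, fewer cells of a type and less RNA per cell cannot be told apart.

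The arrays were not alike as a whole. The median log2 ratio over all genes above the floor was 0.66, and it moved with signal, from 0.91 at a mean log2 signal of 2 to 3 down to -0.21 at 7 to 8. The genes of the pathway are therefore also given after a loess fit on mean signal, which brought the median of all genes to 0.04. The 18 hybridization control probe sets, for transcripts added to the labelled sample, had a median log2 ratio of -1.02. Prom1 itself had a log2 ratio of -0.30, within the SD between probe sets, and both arrays go by the names in the labels. All 23 pan-endothelial markers measured were above the floor on both arrays, with a summed signal of 3022 in Prom1- cells and 2934 in Prom1+ cells. The markers of other cells were lower in the Prom1+ array in part. Over all genes above the floor, 4.77% were at least 2-fold lower and 28.2% higher. Of 18 pericyte and smooth muscle genes above the floor 16 were at least 2-fold lower, with summed signals of 1560 and 501, and of 18 microglia and macrophage genes 13 were, with 395 and 170. Of 7 astrocyte genes 2 were lower and 1 higher, with 119 and 123. Of 5 oligodendrocyte genes 2 were lower and 1 higher, with 441 and 218, and of 4 neuron genes 3 were lower, with 26.8 and 3.20. Of 11 fibroblast and meningeal genes 8 were lower, with 429 and 79.7, and all 12 blood leukocyte genes measured were under the floor on both arrays.

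Of the 50 measured genes of the pathway, 44 were above the floor on at least 1 array. Of these, 13 were at least 2-fold higher in the Prom1+ array (29.5%), beside 28.2% of all genes above the floor. A single gene, Tlr4, was at least 2-fold lower, beside 4.77% of all genes, and 30 differed by less than 2-fold. As deposited, the share that was higher was close to that of all genes and is not a result about the pathway. The median log2 ratio of the 44 genes was 0.76, beside 0.66 for all genes. After loess, 5 genes were at least 2-fold higher (11.4%), beside 4.88% of all genes, and Tlr4 alone was lower, beside 8.13%. The 5 were Bcl3, Ikbkg, Fadd, Birc3 and Tnip2, and the median of the list was then 0.12.

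**Figure D1:**
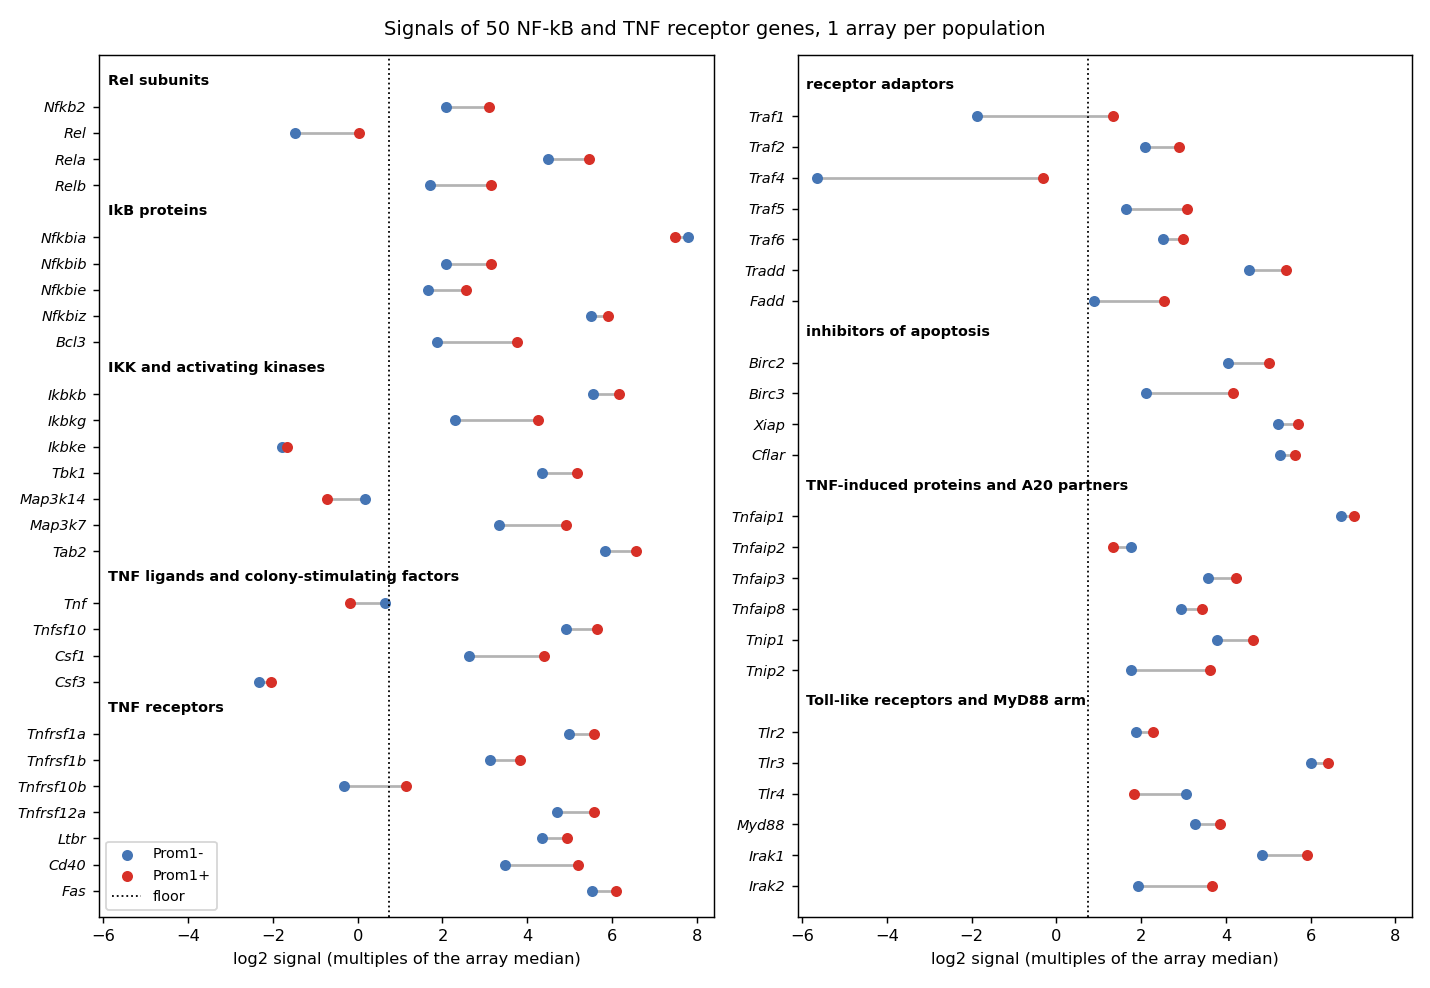
Signal of each NF-kB and TNF receptor gene in the Prom1- and the Prom1+ array, as log2 of the multiple of the array median, grouped by role, with the floor of 1.67 times the median as a dotted line at 0.74. Each point is 1 array, so there are no error bars, and 6 genes lie under the floor on both arrays.

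**Figure D2:**
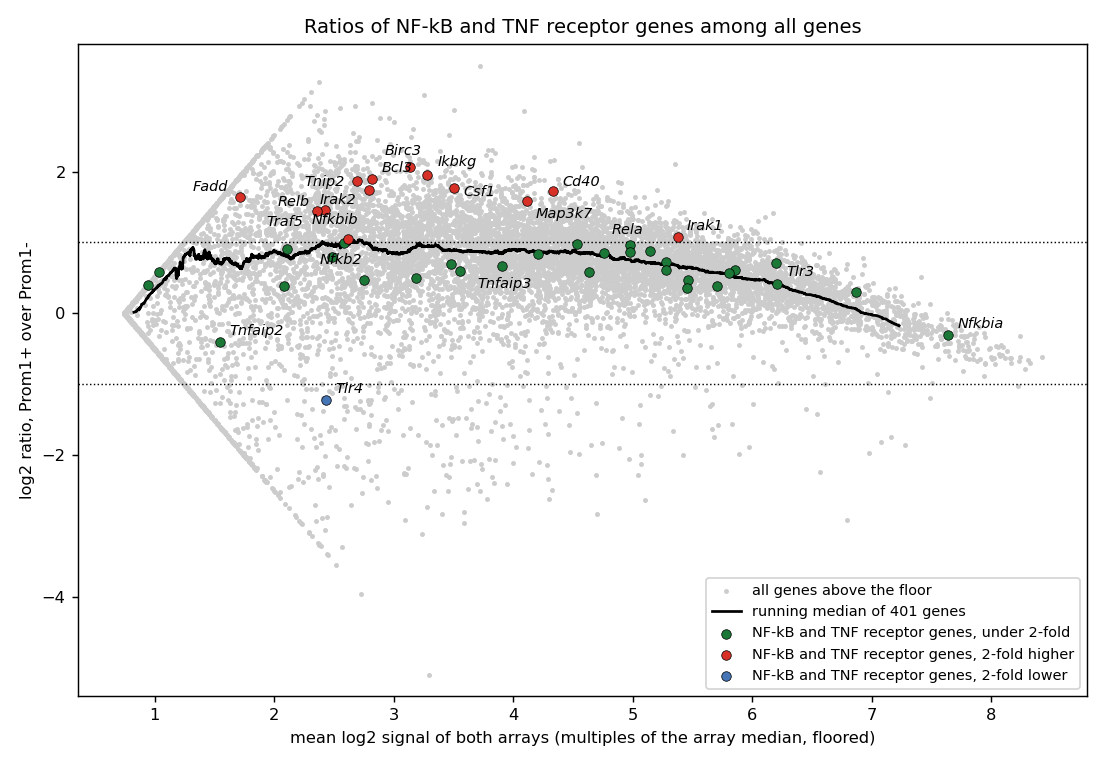
Log2 ratio of Prom1+ over Prom1- against the mean log2 signal of both arrays, for all genes above the floor in grey and for the pathway in colour, with the running median as a line and 2-fold as dotted lines. The running median lies above 0 over most of the signal range and falls under it for the brightest genes, and most genes of the pathway lie near it.

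Promoter sequences of the pathway were searched because several of its genes are known to be controlled by NF-kB itself. RefSeq windows of 300 bases on GRCm38.p6, from 250 bases before to 50 bases after a transcription start, were found for 45 of the 56 genes. The kappa B consensus was searched by its letters on both strands, and overlapping matches were counted separately. At least 1 match lay in the windows of 15 of the 45 genes (33.3%), beside 2581 of 27025 genes in the table (9.55%). Genes that were higher in the Prom1+ array did not stand out within the list. A match was found for 4 of 11 such genes (36.4%) and for 9 of 25 others above the floor (36%). The others with a match were Rel, Tlr2, Tlr3, Tnfaip2, Tnfaip3, Traf3 and Xiap, beside the genes shown next. A match is a description of letters, not of a bound site, and a window without one says only that these letters are not in it.

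The 4 genes with a match that were at least 2-fold higher in the Prom1+ array were Bcl3, Csf1, Map3k7 and Irak1. Their windows are shown on the strand of the gene, 5′ to 3′, with the match in capitals. The match began 3 bases after the start of Bcl3, at chr7:19822744-19822788 on the minus strand. It began 154 bases before the start of Csf1 (chr3:107760579-107760658, minus strand), 92 before that of Map3k7 (chr4:31963980-31964059, plus strand) and 21 before that of Irak1 (chrX:74023919-74023974, minus strand).
Bcl3: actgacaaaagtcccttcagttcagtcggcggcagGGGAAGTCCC
Csf1: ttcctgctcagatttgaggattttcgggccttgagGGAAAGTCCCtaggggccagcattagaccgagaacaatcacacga
Map3k7: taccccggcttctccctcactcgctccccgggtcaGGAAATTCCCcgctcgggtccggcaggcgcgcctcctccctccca
Irak1: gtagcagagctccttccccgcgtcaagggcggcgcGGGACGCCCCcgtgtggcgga

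The feedback inhibitors Nfkbia, Nfkbie and Tnip1 and the p100 gene Nfkb2 are shown beside them because they carried matches while differing by less than 2-fold between the arrays. Nfkbia lies at chr12:55492648-55492711 on the minus strand, Nfkbie at chr17:45555559-45555638 on the plus strand, Tnip1 at chr11:54962952-54963033 on the minus strand and Nfkb2 at chr19:46304663-46304736 on the plus strand. The capitals in Tnip1 cover 3 overlapping matches, and those in Nfkb2 cover 3 matches, of which a pair overlaps. Further windows of Nfkb2 also held matches and are not printed.
Nfkbia: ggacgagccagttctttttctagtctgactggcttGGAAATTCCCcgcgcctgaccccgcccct
Nfkbie: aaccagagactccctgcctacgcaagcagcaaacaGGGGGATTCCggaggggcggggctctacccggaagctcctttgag
Tnip1: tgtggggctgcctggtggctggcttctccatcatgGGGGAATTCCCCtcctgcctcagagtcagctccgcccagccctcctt
Nfkb2: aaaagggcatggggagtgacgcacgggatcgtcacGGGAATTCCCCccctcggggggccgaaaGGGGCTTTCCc

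**Figure D3:**
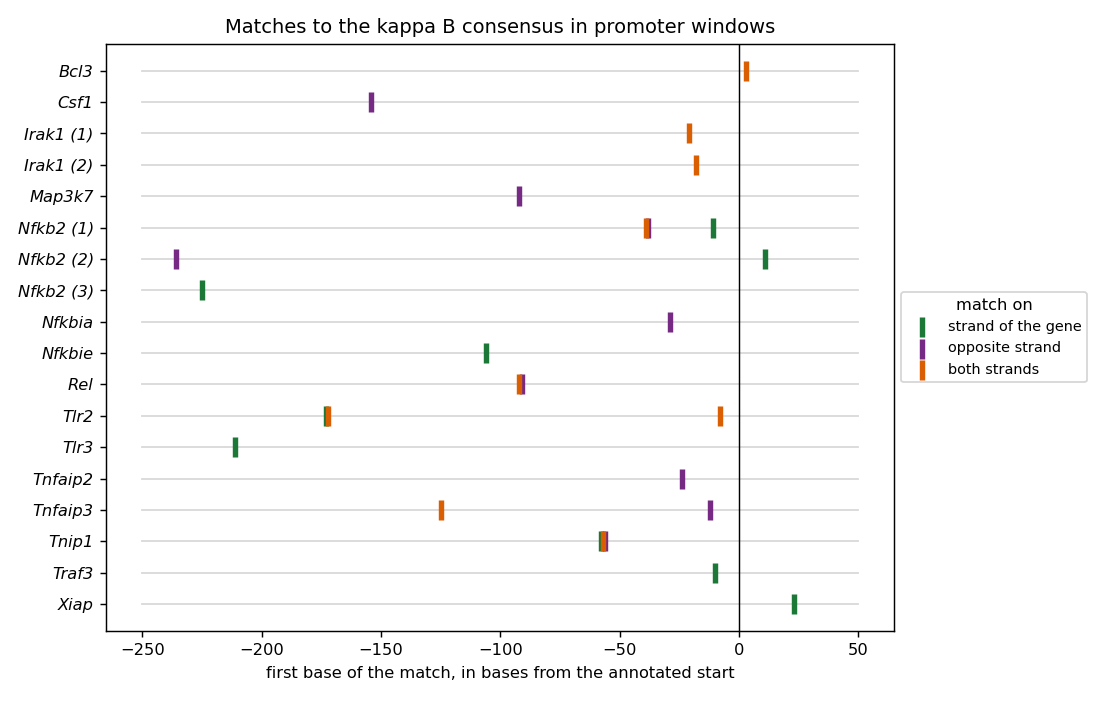
First base of each kappa B consensus match, in bases from the annotated transcription start, for the NF-kB and TNF receptor genes whose windows hold one, with 1 line per window and numbers in brackets where a gene has several. Colours give the strand of the match, and most matches lie before the start, with those of Bcl3, Xiap and 1 of Nfkb2 after it. The match of Irak1 and that 1 of Nfkb2 lie in overlapping windows, and the same bases are drawn on each line at another distance.

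Among the Rel subunits, RelB was the one past 2-fold. Relb, the partner of p52 in the branch through NIK, had a signal of 3.23 in Prom1- cells and 8.89 in Prom1+ cells, given in this order for every gene that follows, a 2.75-fold difference (probe set 1417856_at). Its log2 ratio was 1.46, and 0.59 after loess. Rela, which encodes the p65 subunit of the classical dimer, had 22.6 and 44.0, a log2 ratio of 0.96. Nfkb2, which encodes p100 and its product p52, had 4.26 and 8.49, just under 2-fold, and a second probe set of it gave 2.55 and 5.84, a 2.29-fold difference. Both Rela and Nfkb2 moved close to 0 after loess, at 0.23 and 0.12. Rel, which encodes c-Rel, reached the floor on neither array, with 0.36 and 1.03.

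The IkB proteins differed among themselves. Nfkbia, the classical inhibitor that NF-kB induces as feedback, had 222 and 180, a log2 ratio of -0.31. Its 5 probe sets ran from -0.37 to 0.45. This range spans 0, and after loess the representative probe set was at 0.05. Bcl3, an atypical nuclear IkB protein that works with p50 and p52 dimers, had 3.67 and 13.6 and was 3.70-fold higher in the Prom1+ array (1418133_at). Its log2 ratio of 1.89 was 1.02 after loess, and it was past 2-fold under each of the 6 scalings tried. Nfkbib, which encodes IkB beta, had 4.26 and 8.83, a 2.07-fold difference that was 0.18 on the log2 scale after loess. Nfkbie, which encodes IkB epsilon, had 3.15 and 5.87 and a log2 ratio of 0.90, which was 0.09 after loess. Nfkbiz, the inducible nuclear IkB zeta, had 45.5 and 59.7, a log2 ratio of 0.39 that was -0.16 after loess, while a further probe set of the gene gave 20.9 and 53.4, a 2.56-fold difference, so that its probe sets did not give one value.

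Of the kinases, the scaffold of the IkB kinase complex and its upstream activator TAK1 were past 2-fold. Ikbkg, which encodes the scaffold NEMO, had 4.92 and 19.0, a 3.87-fold difference (1454690_at). Another probe set of Ikbkg gave 5.33 and 9.98, a 1.87-fold difference, and another 3.37 and 6.41, a 1.90-fold difference. These 3 reached the floor on both arrays and had log2 ratios of 0.91 to 1.95, with 1 past 2-fold. The NEMO call thus rested on 1 of 3 probe sets that shared a direction. A further probe set ran the other way, with 2.77 and 1.35, but its Prom1+ signal did not reach the floor. Map3k7, which encodes TAK1, had 10.03 and 29.9, a 2.99-fold difference, and the 4 of its probe sets that reached the floor on both arrays were all past 2-fold, with log2 ratios of 1.38 to 1.94. Its loess ratio was 0.72. Tab2, the TAK1 partner that binds ubiquitin chains, had 57.3 and 94.1, a log2 ratio of 0.72 that was 0.35 after loess.

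The catalytic subunit gene Ikbkb had 46.8 and 71.5, a log2 ratio of 0.61. Tbk1, which encodes a kinase related to the IkB kinases, had 20.3 and 36.4 and a log2 ratio of 0.84. Both were near the median of all genes, also after loess, at 0.11 and 0.07. Ikbke, which encodes the related kinase IKK epsilon, was under the floor at 0.289 and 0.313, and Map3k14, which encodes NIK, at 1.12 and 0.601.

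Tnf reached the floor on neither array, with 1.56 and 0.877, so no fold is given for the ligand that names the family. Tnfsf10, which encodes the death ligand TRAIL, had 30.2 and 49.7 and a log2 ratio of 0.72, which was 0.05 after loess. The 3 probe sets of Tnfsf10 ran from 0.72 to 1.23, with 1 past 2-fold. Csf1, which encodes the growth factor of macrophages and microglia, had 6.16 and 20.9 (1460220_a_at). Its 3 further probe sets each had a higher signal in the Prom1+ array as well, the faintest with 1.09 and 3.10. All 3 were under the floor in the Prom1- array, so their ratios are bounds. The log2 ratio of Csf1 by its representative probe set was 1.76, and 0.87 after loess. Csf1r, the receptor for this factor and a marker of microglia, had 71.5 and 33.6. Csf3, which encodes the granulocyte factor, was under the floor at 0.199 and 0.242.

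Of the 7 TNF receptor genes, all were above the floor on at least 1 array and 1 was past 2-fold. Cd40, the costimulatory receptor that signals through both NF-kB branches, had 11.1 and 36.6, a 3.30-fold difference (1439221_s_at). Its 3 probe sets all passed 2-fold, with log2 ratios of 1.59 to 1.94. Cd40 was 0.88 after loess and so under 2-fold there. Cd40lg, its ligand, was under the floor at 0.0631 and 0.307.

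The principal TNF receptors differed less. Tnfrsf1a, which encodes the death domain receptor TNFR1, had 31.4 and 47.9 and a log2 ratio of 0.61. Tnfrsf1b, which encodes TNFR2, had 8.74 and 14.2 and a log2 ratio of 0.70. After loess both lay near 0, at -0.06 and -0.20.

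Tnfrsf12a, which encodes the TWEAK receptor Fn14, had 26.1 and 47.9, and Ltbr, the lymphotoxin beta receptor gene, had 20.3 and 30.5. Their log2 ratios were 0.88 and 0.59, and 0.18 and -0.21 after loess. The death receptor gene Fas had 46.0 and 68.3, a log2 ratio of 0.57, and after loess 0.05. These 3 receptors were thus measured on both arrays and differed by less than 2-fold. Tnfrsf10b, which encodes the TRAIL receptor, was above the floor in the Prom1+ array alone, at 0.803 and 2.20, and its floored log2 ratio was 0.39, and 0.40 after loess.

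Among the adaptors, Traf5 and Fadd were past 2-fold. Traf5, which links CD40 and related receptors to NF-kB, had 3.11 and 8.41, a 2.71-fold difference (1448861_at), and 0.58 on the log2 scale after loess. Fadd, the adaptor that recruits caspase 8 to death receptors, had 1.85 and 5.80, a 3.13-fold difference (1416888_at). The Prom1- signal of Fadd was just above the floor. Its loess ratio was 1.02, and it was past 2-fold in 6 of 6 scalings. With the higher of the other floors tried, the log2 ratio of Fadd was 0.79, under 2-fold.

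Tradd, the adaptor of TNFR1, had 23.4 and 42.7 and a log2 ratio of 0.87. Traf2, an adaptor of TNFR2 and of the TNFR1 complex, had 4.25 and 7.38 and a log2 ratio of 0.80. Traf6, which serves CD40 and the Toll-like receptors, had 5.73 and 7.91, a log2 ratio of 0.46 that was -0.40 after loess. None of these 3 was past 2-fold on either scale, and Tradd and Traf2 were at 0.14 and -0.08 after loess. Traf1, an NF-kB target gene, had 0.272 and 2.51, and its other probe set ran the opposite way with 2.23 and 0.502, so no direction can be read for it. Traf4 was under the floor at 0.02 and 0.808.

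Birc3, which encodes cIAP2, a ubiquitin ligase induced by NF-kB, had 4.31 and 18.0. The 4.17-fold difference, a log2 ratio of 2.06 (1421392_a_at), was 1.17 after loess. A second probe set of Birc3 gave 2.63 and 3.02, a log2 ratio of 0.20, so the 2 probe sets of this gene did not give the same size. Its close relative Birc2, which encodes cIAP1, had 16.5 and 32.5, a log2 ratio of 0.98. Xiap, a direct inhibitor of caspases, had 37.5 and 52.0 (log2 ratio 0.47), with the 4 of its probe sets that reached the floor on both arrays running from -0.12 to 1.497. Cflar, which encodes the caspase 8 regulator c-FLIP, had 38.7 and 49.5 and a log2 ratio of 0.36. The 3 probe sets of Cflar that reached the floor on both arrays ran from 0.36 to 1.13, with 1 past 2-fold. Birc2, Xiap and Cflar were all under 2-fold by their representative probe sets, and after loess they were at 0.17, -0.15 and -0.27.

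Of the TNF-induced proteins and A20 partners, the A20 partner gene Tnip2 alone was past 2-fold. Tnip2, which encodes the A20 partner ABIN-2, had 3.38 and 12.4, a 3.66-fold difference (1419488_at), and 1.00 on the log2 scale after loess, just past 2-fold. Tnfaip3, which encodes the ubiquitin editing enzyme A20 that shuts the pathway off, had 11.9 and 18.9 and a log2 ratio of 0.66. Tnip1, which encodes ABIN-1, had 13.8 and 24.7 and a log2 ratio of 0.84. After loess A20 and ABIN-1 were at -0.20 and -0.01, on the general trend of the arrays. Tnfaip1, which encodes an adaptor of cullin 3 ubiquitin ligases, had 105 and 129 and a log2 ratio of 0.30, with 3 probe sets from -0.07 to 0.98. Tnfaip2, a gene that TNF induces in endothelium, had 3.37 and 2.54, a log2 ratio of -0.41 that was -0.91 after loess. Tnfaip8, which encodes a regulator of apoptosis, had 7.65 and 10.8 and a log2 ratio of 0.50. The signs of Tnfaip1 and Tnfaip8 differed after loess, at 0.26 and -0.40.

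The Toll-like receptor arm held the one gene that was lower. Tlr4, the receptor for lipopolysaccharide, had 8.28 and 3.53 and was 2.35-fold lower in the Prom1+ array (1418162_at). Its log2 ratio was -1.23, and -2.10 after loess, and its other 3 probe sets were under the floor on both arrays. Microglia, which are known to express Tlr4, had markers that were lower in the same array. Cx3cr1 had 8.02 and 3.76 and C1qb had 78.7 and 31.8. Of the 18 microglia and macrophage genes above the floor, 13 were at least 2-fold lower, beside 4.77% of all genes. Mural cell markers were lower too, Pdgfrb at 57.2 and 19.3. The part of other cells in the Tlr4 value was not tested. Tlr2, the receptor for bacterial lipoproteins, had 3.69 and 4.83 and a log2 ratio of 0.39. Tlr3, which senses double-stranded RNA, had 64.0 and 85.4 and a log2 ratio of 0.42. After loess the direction of Tlr2 turned, to -0.42, and Tlr3 was at 0.06.

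Downstream of these receptors, both kinase genes were past 2-fold as deposited, and neither was after loess. Irak2, which sustains signalling from MyD88, had 3.79 and 12.6, a 3.34-fold difference (1436507_at), with a loess ratio of 0.88. Irak1 had 28.6 and 60.4, a 2.11-fold difference (1438120_x_at), and 2 of the 4 probe sets that could be compared passed 2-fold, with log2 ratios from 0.85 to 1.08. Its loess ratio was 0.43. Myd88, the adaptor itself, had 9.57 and 14.5 and a log2 ratio of 0.60, which turned to -0.29 after loess.

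**Figure D4:**
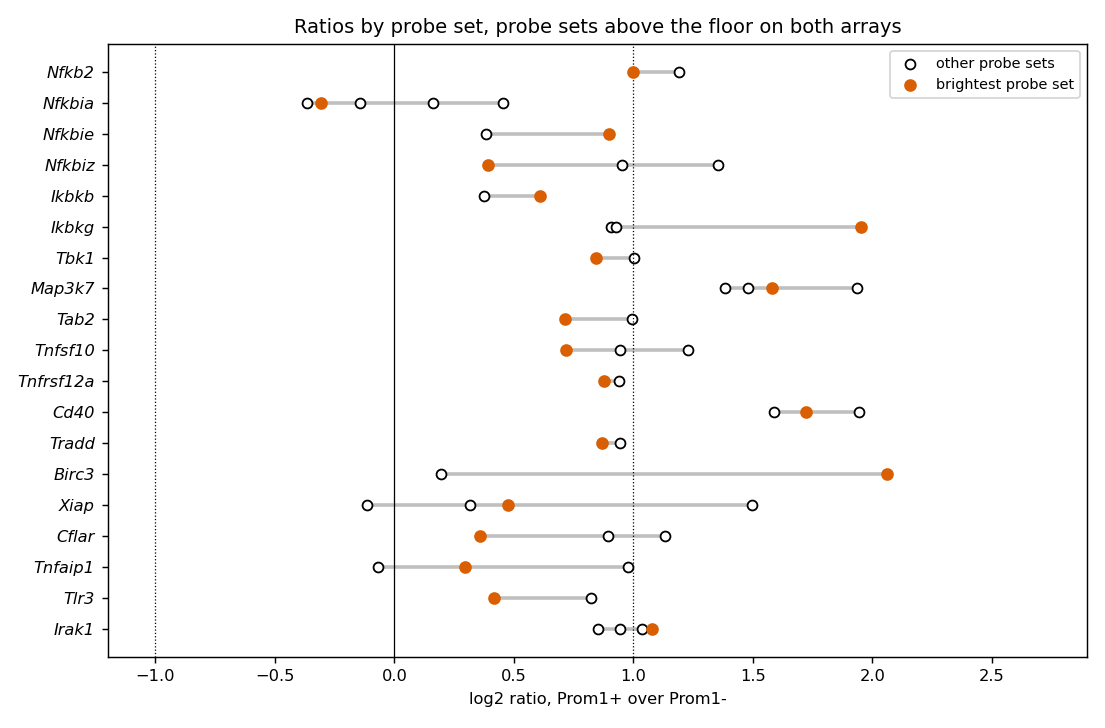
Log2 ratios of the single probe sets that reached the floor on both arrays, for the NF-kB and TNF receptor genes with at least 2 of them, with 2-fold marked by dotted lines and the probe set that stands for the gene filled. The 4 probe sets of Map3k7 and the 3 of Cd40 lie past 2-fold, while those of Birc3 and Xiap lie far apart.

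The calls depended on how the arrays were scaled. Bcl3, Ikbkg, Fadd, Birc3 and Tnip2 were past 2-fold in 6 of 6 scalings, Csf1 and Irak2 in 5, and Map3k7 and Cd40 in 4. Relb, Nfkbib, Traf5 and Irak1 were past it in 3. Tlr4 was lower in the Prom1+ array under all 6, with log2 ratios from -2.10 to -0.21, and past 2-fold in 5. Of the genes past 2-fold in all 6, Ikbkg and Birc3 had 1 probe set past it, whereas Map3k7 and Cd40 had all the probe sets that could be compared past it. The mean over probe sets took in every probe set of a gene, also those that reached the floor on neither array. With it Ikbkg, Map3k7, Fadd and Irak1 were no longer past 2-fold, and Traf5 and Tlr4 fell under the floor. The mean log2 ratio of Map3k7 was 0.80, although the 4 of its probe sets that could be compared were all past 2-fold. A call lost with the mean is therefore not in itself a disagreement between probe sets that could be compared.

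**Figure D5:**
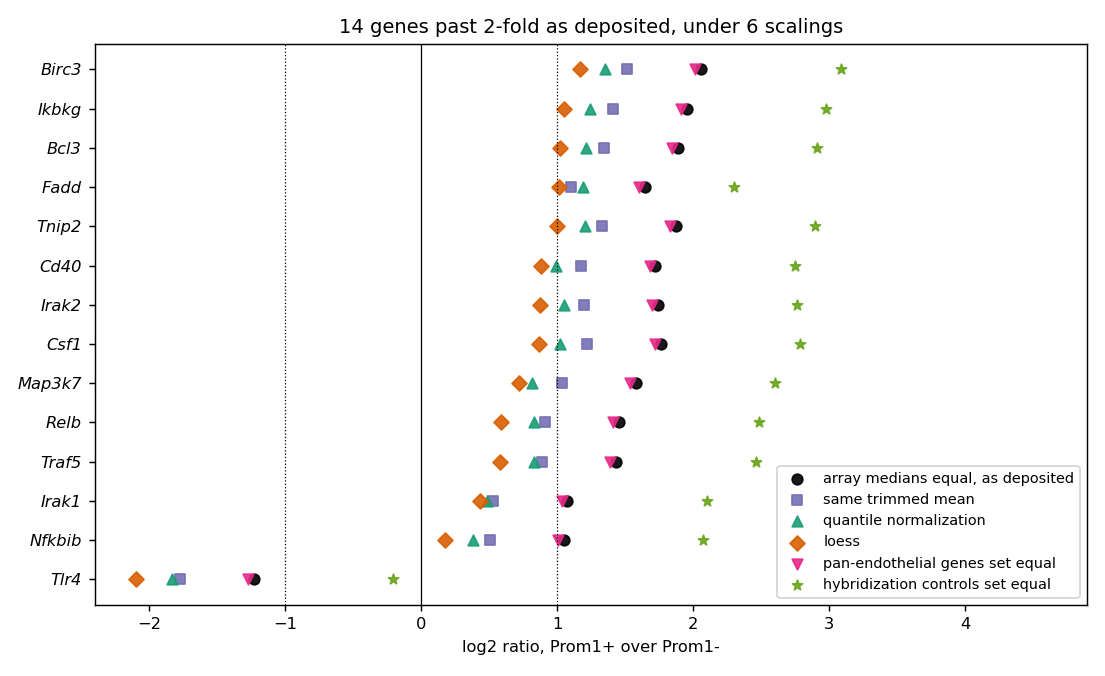
Log2 ratios of the 14 NF-kB and TNF receptor genes past 2-fold, under each of 6 scalings of the arrays, with 2-fold marked by dotted lines. Each of the 13 higher genes stays above 0 under every scaling shown, and Tlr4 stays below 0.

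The other genes of the pathway were taken from 3 further lists. Of 36 other core regulators measured, 27 were above the floor, and 11 were at least 2-fold higher (40.7%, beside 28.2% of all genes) and 0 lower (beside 4.77%) in the Prom1+ array, with a median log2 ratio of 0.85 beside 0.66 for all genes. After loess 2 were higher (beside 4.88% of all genes) and 1, Tnfrsf21, was lower (beside 8.13%). Malt1, which encodes the paracaspase of the CARD and BCL10 complex, had 2.46 and 9.42, a 3.84-fold difference, and its partner Bcl10 had 33.3 and 67.5, a 2.02-fold difference. Azi2, an adaptor of TBK1, had 11.5 and 40.5, a 3.52-fold difference. After loess Malt1 was at 1.09 on the log2 scale, while Bcl10 at 0.43 and Azi2 at 0.99 were under 2-fold. Tollip, an inhibitor of Toll-like receptor signalling, had 90.5 and 107, and Ube2n, the enzyme that builds ubiquitin chains linked through lysine 63, had 64.1 and 83.3. Both were under 2-fold, and after loess at 0.08 and 0.01. Tnfrsf21, which encodes death receptor 6, had 17.4 and 14.3 and a log2 ratio of -0.28, which was -1.14 after loess, and Il1rap, the interleukin 1 receptor accessory protein, 3.13 and 3.47, with a loess ratio of -0.48.

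Of 29 genes known as NF-kB targets in endothelium and measured here, 18 were above the floor. In the Prom1+ array 9 of them were at least 2-fold higher (50%, beside 28.2% of all genes) and 1 was lower (5.56%, beside 4.77%), with a median log2 ratio of 1.05 beside 0.66 for all genes. The list was drawn up with earlier results of these data known. Among the 9 are Ptgs2, Lcn2, Vcam1 and Vegfc, which the study itself listed as upregulated on these arrays. The study also listed Sele and Selp as upregulated and Il6 as downregulated, and here these were under the floor on both arrays. Sele had 0.0215 and 0.465, Selp 1.01 and 0.634 and Il6 0.530 and 0.195, so no fold is given for them. For Selp the study listed another probe set than the one used here. The share is therefore not independent of those results. After loess 3 of the 18 were higher (beside 4.88% of all genes) and 1 lower (beside 8.13%). Ier3, an early response gene, had 147 and 161, and Gadd45b, a stress gene that is a target of the pathway, had 66.0 and 60.0. Irf1, which encodes an interferon regulatory factor, had 41.5 and 82.2, a log2 ratio of 0.99, and was just under 2-fold. Bmp2, which encodes a bone morphogenetic protein, was the lower gene, with 11.3 and 3.65, and Ccl2, which encodes a monocyte chemokine, had 2.20 and 1.08. Ptgs2, which encodes cyclooxygenase 2, and Lcn2, which encodes lipocalin 2, had the largest ratios of the list. The loess ratio of Ptgs2 was 2.62, and Lcn2 had 0.0118 and 8.21. After loess Bmp2 was at -2.50, Ccl2 at -0.39, Irf1 at 0.49, Ier3 at 0.30 and Gadd45b at -0.59.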

How the data were processed

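The deposited values are log2 signals, 1 column per array, and the median of each column is 0. The step that set these medians is not described in the sources used here, and the floor rests on the values as deposited. MAS5 is named, without a version, in the submitters' processing notes, and the lowest deposited log2 value was -6.64. Neither detection calls nor a genome build are given in the sources used here. All 45101 probe sets were read, of which 34958 are annotated to 1 gene symbol. The precision is limited by the number of arrays, 1 per population, and no p-value was made.

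Each log2 value was converted to a signal relative to its array's median. A floor of 100 on a scale with a 2% trimmed mean of 500 was translated to 1.67 times the median through the mean of both arrays. A gene was higher or lower at 2-fold or more between floored signals. A ratio with 1 signal under the floor is a bound, and genes with both under it have none. Loess was fitted with a span of 0.2 to probe sets that reached the floor on both arrays.

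The genes of the list, the other lists and the markers were chosen with earlier results of these data known. Every gene of the list is named, and of other lists the 3 brightest and the 2 with the largest ratio each way. The rules were tested on simulated data. Alternatives were other floors and thresholds, 5 further scalings, the mean over probe sets, the removal of probe sets named _x_at or _s_at, and, chosen after seeing the data, the brightest probe set by mean log2 signal. The loess came from statsmodels 0.14.6, and plots from matplotlib 3.10.9. Tables were handled with pandas 2.3.3, scipy 1.17.1 and numpy 2.4.6 under Python 3.11.15.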

Additional observations from a re-analysis of the deposited data

How the results depend on the processing

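No paired analysis was possible because each population had 1 array. Beside 13 genes at least 2-fold higher and 1 lower, thresholds of 1.5-fold and 3-fold gave 30 higher and 1 lower, and 8 higher and 0 lower. These were 68.2% higher beside 54.6% of all genes, and 18.2% beside 6.60%. Quantile normalization gave 7 higher and 1 lower with a median log2 ratio of 0.21, loess gave 5 and 1 with 0.12, and hybridization controls set equal gave 40 and 0 with 1.78. Scaling to the same trimmed mean gave 9 and 1 with 0.25. The median of all genes was 0.10, 0.04, 1.64 and 0.12 in that order, and the shares that were higher were 15.9% beside 6.38% of all genes, 11.4% beside 4.88%, 90.9% beside 79.4% and 20% beside 8.10%. The distance from the share of all genes was thus wider under these settings than the 29.5% beside 28.2% as deposited, and it was not tested. With the mean over the probe sets of a gene, 11 were higher (28.2% beside 26.7%) and 0 lower, with Tlr4 under the floor there. Without probe sets named _x_at or _s_at 12 were higher, with Nfkbib and Irak1 no longer and Tbk1 newly among them. Their share of 28.6% was under the 29.1% of all genes. Floors of 50 and 200 gave 15 (31.9% beside 28.2%) and 12 (28.6% beside 26.5%) higher, and Fadd was not among the 12. Pan-endothelial genes set equal gave 13 higher (29.5% beside 25.9%) and 1 lower. The probe set chosen by mean log2 signal, an alternative added after seeing the data, gave 13 higher (29.5% beside 27.9%) and 1 lower. Of 154 values of called genes under the alternatives, 91 stayed within the SD between probe sets, 63 moved further and 0 changed sign. A floor of 50, no floor and the probe set chosen by mean log2 signal left all of these values unchanged. Traf5 and Tlr4 with the mean over probe sets, and Nfkbib without probe sets named _s_at, were under the floor and have no sign. Scalings by 1 factor moved the genes together, so the tally does not measure how stable single genes were. The cause of the shifts between settings was not tested. Signals under the floor limit what can be said of 6 genes.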

Other observations

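The remaining ligands and receptors of the TNF superfamily were mostly under the floor. Of 26 measured, 21 were under it on both arrays, among them the lymphotoxin gene Lta at a signal of 0.232 in Prom1- cells and 0.138 in Prom1+ cells. Of the 5 above it, 1 was at least 2-fold higher (beside 28.2% of all genes) and 2 were lower (beside 4.77%) in the Prom1+ array. After loess 0 were higher (beside 4.88% of all genes) and 2 lower (beside 8.13%). Tnfrsf25, which encodes death receptor 3, had 3.58 and 9.76, a 2.72-fold difference that was 0.57 on the log2 scale after loess and so under 2-fold. Tnfrsf22, a decoy receptor gene, had 6.83 and 1.90, a 3.60-fold difference the other way. Tnfsf9, which encodes the ligand of 4-1BB, had 3.36 and 0.241 and was at least 2.01-fold lower. Tnfrsf19, which encodes the receptor TROY, had 74.0 and 101 and differed by less than 2-fold.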
